A study of Homo sapiens with 4 samples.

Results

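Runs of close m6A peaks were examined in H1975 cells with and without METTL3 knockdown. The members were chosen by the genome positions of the called peaks alone. Within each library, neighbouring peaks were joined when the gap from the end of one to the start of the next was at most 2000 bp, and runs of 3 or more peaks were kept as chains. In total 1608 of 21693 peaks lay in a chain. In the control library these were 656 of 9441 peaks (6.95%, 95% Wilson CI 6.45 to 7.48%), grouped in 202 chains. In the METTL3 knockdown library they were 952 of 12252 peaks (7.77%, 95% Wilson CI 7.31 to 8.26%), grouped in 290 chains. These shares depended on the limit, being 4.35% and 4.34% with a largest gap of 1000 bp and 11.4% and 13.05% with 5000 bp, and with equal numbers of peaks in both libraries they were 6.95% and 6.92%, so their order was not kept throughout.

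H1975 is an established human lung adenocarcinoma (LUAD) line. Both groups carried lentiviral shRNA for 48 h, a control shRNA (NC-sh) or a shRNA against METTL3 (METTL3-sh), and each gave 1 Input and 1 MeRIP library, 4 samples in all. The series' design text speaks of 3 replicates of each group, whereas the labels list 1 library of each kind, and what each library stands for was not determined. In MeRIP-seq, fragmented RNA is pulled down with an antibody against m6A and sequenced beside an Input portion that was not pulled down. The labels name H1975 cells, which was followed here, but each peak name carries H1299, a different LUAD line. No value below has a replicate check, no test between NC-sh and METTL3-sh was made, and all intervals cover counting error or the spread over peaks only. Intervals for shares of peaks treat each peak as independent. Chained peaks come in groups of 3 or more, so these intervals are likely too narrow. The knockdown itself could not be checked in the peak lists.

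METTL3 catalyses the writing of m6A on nascent mRNA, together with its RNA-binding partner METTL14. The mark is known to gather near stop codons, in 3′UTRs and in long internal exons, where several methylated adenosines may stand near each other. A long exon with several such places may give neighbouring MeRIP peaks, and since the peaks here have genome positions, a long intron between them would end a chain. The METTL3 shRNA is shown because it defines the METTL3-sh group. Its sequence, 21 nt long, was taken from the study's primer list and is printed here in lower case.
METTL3 shRNA: gctgcacttcagacgaattat

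Positions are those of hg19, the build named in the submitters' processing notes. No hg19 annotation or sequence was used here, so the chains are given by position, without gene names, exons or motifs. Whether the peaks of a chain belong to 1 transcript was thus not determined.

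Most chains were short. In NC-sh, 161 chains had 3 peaks, 32 had 4 and 9 had 5. In METTL3-sh, 222 had 3 peaks, 56 had 4, 11 had 5 and 1 had 7. The number of chains in METTL3-sh was 1.44 times that in NC-sh, beside 1.37 times as many runs of 2 peaks (1226 against 897) and 1.30 times as many peaks. With the same number of peaks taken from both libraries, the best by −log10 q, the order turned, with 202 NC-sh chains against 198 METTL3-sh chains. The surplus of chains in METTL3-sh was thus not seen at equal numbers of peaks. It was seen when only peaks at or above the pooled median −log10 q were kept, with 47 NC-sh and 80 METTL3-sh chains. These held 3.18% and 4.36% of the kept peaks. With only peaks of 12-fold enrichment or more there were 18 and 29 chains, holding 1.57% and 1.92% of the kept peaks. NC-sh chains spanned a median of 3053 bp, with quartiles of 2247 and 3962 bp. METTL3-sh chains spanned 3151.5 bp, with quartiles of 2350 and 4087 bp. Peaks filled a median of 54.8% and 50.9% of the span.

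**Figure D1:**
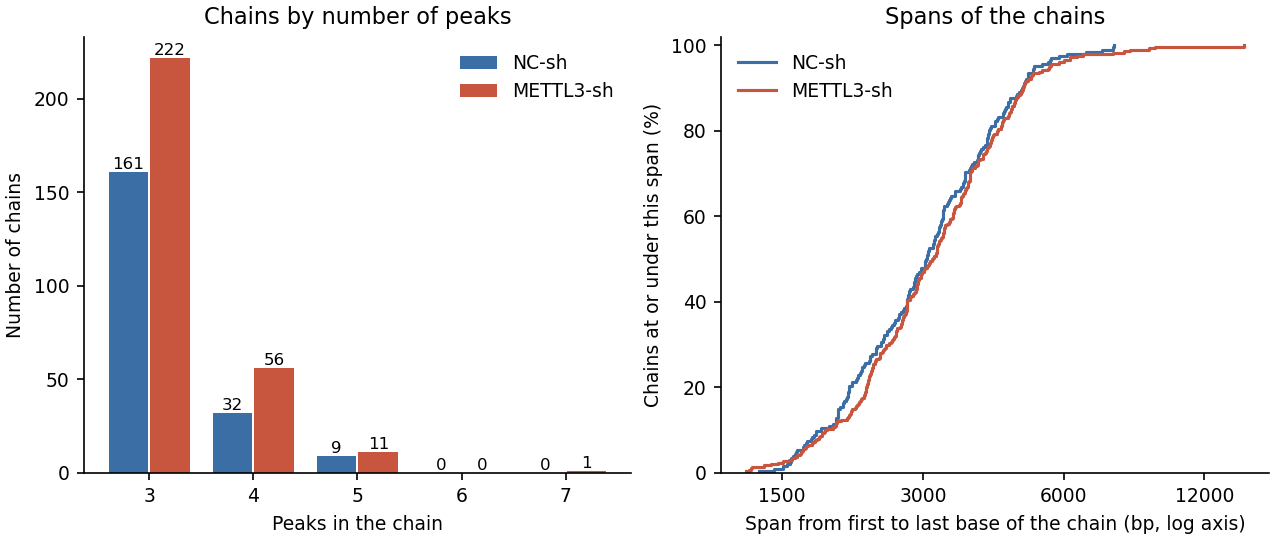
Left, the number of chains (bars, labelled with their counts) by the number of peaks in the chain, for NC-sh (blue) and METTL3-sh (red). Right, the percentage of chains at or under a given span in bp (log axis); the curves lie close together, and the longest span is 7708 bp in NC-sh and 14579 bp in METTL3-sh.

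Links between neighbours were mostly far below the limit. The 454 links of the NC-sh chains had a median gap of 474.5 bp (quartiles 257 and 962 bp), and the 662 links of the METTL3-sh chains had a median of 556.5 bp (quartiles 287 and 1056 bp). Gaps of at most 500 bp made up 50.9% of NC-sh links and 45.5% of METTL3-sh links. The widest gap inside a chain was 1997 bp in NC-sh and 1982 bp in METTL3-sh, and the narrowest gap over the limit anywhere in the list was 2009 bp and 2001 bp. Peaks carry running numbers, and numbers are missing in both lists, which was taken as the mark of peaks removed after calling. The lowest fold enrichment listed was 6.0007 in NC-sh, beside 6.0003 for METTL3-sh. The numbers on both sides of a link were consecutive in 93.2% of NC-sh links (95% Wilson CI 90.5 to 95.1%) and in 93.5% of METTL3-sh links (91.4 to 95.1%). On that reading no called peak had been taken out between these neighbours, and 173 of the 202 NC-sh and 250 of the 290 METTL3-sh chains had no missing number inside.

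Chained peaks had a median strength close to that of their whole list. Fold enrichment, the ratio of the MeRIP signal at the summit to the signal expected locally, had a median of 10.7 in chained NC-sh peaks (quartiles 7.72 and 16.0) beside 10.2 in all NC-sh peaks. In METTL3-sh it was 10.7 (quartiles 7.95 and 16.0) beside 9.79. Reads at the summit were obtained from the pileup, which rose in equal steps of 1 read. They are not scaled between libraries, whose total depths are unknown, whereas fold enrichment is a ratio within its library. A chained peak had a median of 159 reads at its summit in NC-sh, from 27 to 13996, beside 169 in all peaks. In METTL3-sh it had 148.5 reads, from 24 to 15448, beside 132. Chained peaks were thus slightly below the list in reads in NC-sh and slightly above it in METTL3-sh. Chained peaks were a median of 409.5 bp long in NC-sh, beside 395 bp for all its peaks, and 417.5 bp in METTL3-sh, beside 371.5 bp. At least 1 kb long were 9.45% of the chained NC-sh peaks and 8.82% of the chained METTL3-sh peaks, beside 8.10% and 7.43% of all peaks. Runs of 2 peaks, which the rule left out, had a median fold enrichment of 10.2 (NC-sh) and 10.1 (METTL3-sh).

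The local expectation is the signal expected around a peak, in the scaled units of the pileup. Fold enrichment divides pileup by it after 1 is added to both, and each library has a lowest value that many peaks share. Within 2% of that floor lay 4.88% of chained peaks in NC-sh beside 10.5% of all peaks. In METTL3-sh these were 6.93% beside 15.3%. Runs of 2 peaks were also below the list, at 9.14% in NC-sh beside 9.87% for METTL3-sh, so a share below the list was not particular to chains.

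Peaks of 1 chain were not equally strong. The highest fold enrichment in a chain was a median of 2.37 times the lowest in NC-sh (quartiles 1.74 and 3.58) and 2.33 times in METTL3-sh (quartiles 1.65 and 3.50). The local expectation, before 1 is added, varied as well, by a median of 2.85 times between the highest and lowest peak of a chain in either library. Among chains of 3, the strongest peak was the middle one in 47 of 161 NC-sh chains (29.2%) and in 74 of 222 METTL3-sh chains (33.3%). Outer and inner peaks had a median fold enrichment of 10.8 and 10.3 in NC-sh, and 10.6 and 10.9 in METTL3-sh.

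The same 3 chromosomes led both libraries in the share of peaks that lay in chains. The share was highest on chromosome 21, at 22 of 141 NC-sh peaks (15.6%, 95% Wilson CI 10.5 to 22.5%) and 29 of 162 METTL3-sh peaks (17.9%, 12.8 to 24.5%). These peaks made up only 7 NC-sh and 9 METTL3-sh chains. Chromosome 13 had 14.9% and 12.5%. Chromosome 19, which is known for clusters of zinc finger genes, had 10.5% in NC-sh beside 13.02% for METTL3-sh. By number, chromosome 19 held the most chains, 23 in NC-sh and 33 in METTL3-sh. Chromosome 17 was lowest among chromosomes with a chain, with 2.75% in NC-sh and 4.17% in METTL3-sh. Few chains were near each other, as 14 NC-sh and 23 METTL3-sh chains lay within 100 kb of another chain of the same library.

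Chains were next compared between libraries by overlap of their spans of at least 1 bp. A METTL3-sh chain overlapped 109 of the 202 NC-sh chains (54.0%, 95% Wilson CI 47.1 to 60.7%), and an NC-sh chain overlapped 109 of the 290 METTL3-sh chains (37.6%, 32.2 to 43.3%). Of the 383 loci with a chain in either library, 28.5% had a chain in both. At least 1 METTL3-sh peak lay within 200 of the 202 NC-sh chains (99.0%) and at least 1 NC-sh peak within 273 of the 290 METTL3-sh chains (94.1%). Since 76.2% of all NC-sh peaks and 58.6% of all METTL3-sh peaks had an overlap and each span holds several peaks, nothing particular to chains is read from these counts. Among the unshared chains the other library most often had 2 peaks in the span, in 56 of the 93 NC-sh and 92 of the 181 METTL3-sh chains. Over all 202 NC-sh chains the most frequent count was 3 METTL3-sh peaks (83 chains). Over all 290 METTL3-sh chains it was 2 NC-sh peaks (95 chains). From 3 to 5 peaks, the share of shared chains was higher the longer the chain, as a description without a test. The rule favours this order. A longer chain can lack some overlaps and still meet a chain of 3, and a wider span is more easily overlapped. Nothing about chain length itself is read from it. In NC-sh, 46.6% of the chains of 3, 81.3% of those of 4 and 8 of 9 chains of 5 were shared. In METTL3-sh, these were 31.1%, 57.1% and 8 of 11, and the chain of 7 was not shared.

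**Figure D2:**
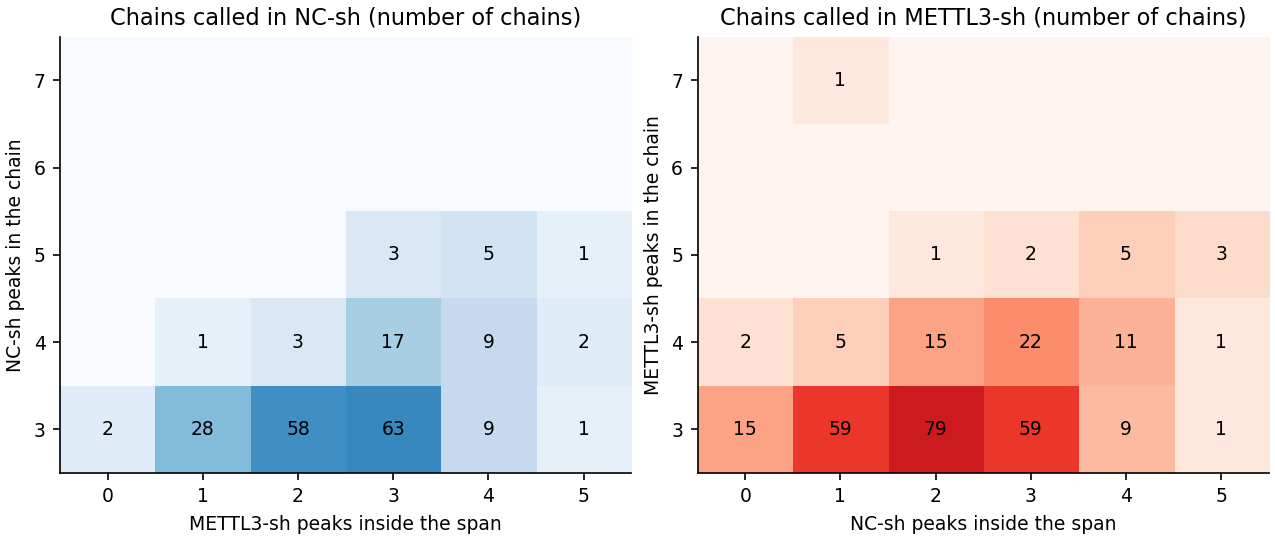
Each cell gives the number of chains with a given number of own peaks (vertical axis) and of peaks of the other library inside the span (horizontal axis), for the 202 NC-sh chains (left, blue) and the 290 METTL3-sh chains (right, red), darker cells holding more chains. No peak of the other library lay in 2 NC-sh and 17 METTL3-sh chains, as a description beside the 76.2% and 58.6% of all peaks overlapped, and the METTL3-sh chain of 7 held 1 NC-sh peak.

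Where chains were shared, their spans largely coincided. The shared part was a median of 97.4% of the longer span, and the number of peaks was the same at 65 of the 109 loci, higher in NC-sh at 19 and higher in METTL3-sh at 25. Altogether 369 NC-sh and 375 METTL3-sh peaks made up these loci. Shared chains had the higher median of reads. The median over chains of the chain's median reads was 211 in shared and 103 in unshared NC-sh chains, and 187 and 113.5 in METTL3-sh chains.

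The unshared chains were split first by whether the other library had 3 peaks in the span. Of the 93 unshared NC-sh chains, 6 held 3 or more METTL3-sh peaks that did not form a chain. The others held fewer than 3 METTL3-sh peaks, and of these 63 had at least 1 own peak without an overlap, while in 24 every own peak was overlapped. Of the 181 unshared METTL3-sh chains, 7 held 3 or more NC-sh peaks, and among those with fewer, 164 had at least 1 own peak without an overlap and in 10 every own peak was overlapped. Among the chains with fewer than 3 peaks of the other library, exactly 1 own peak lacked an overlap in 38 NC-sh and 71 METTL3-sh chains.

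Peak by peak, an overlapping METTL3-sh peak was found for 537 of the 656 chained NC-sh peaks (81.9%, 95% Wilson CI 78.7 to 84.6%), where the share among all NC-sh peaks was 76.2%. An overlapping NC-sh peak was found for 627 of the 952 chained METTL3-sh peaks (65.9%, 62.8 to 68.8%), beside 58.6% of all METTL3-sh peaks. Runs of 2 peaks were also above the list, at 77.9% in NC-sh and, within the interval of the chained peaks, 64.2% for METTL3-sh, so a higher share than the list was not particular to chains. The chained peaks without an overlap had the lower medians of strength. In NC-sh these 119 peaks had a median of 72 reads against 193 in the chained peaks with an overlap, and a median fold enrichment of 7.37 against 11.9. In METTL3-sh the 325 peaks had a median of 70 reads against 222, and a fold enrichment of 8.07 against 12.7. They were also shorter, at 309 against 441 bp in NC-sh and 301 against 485 bp in METTL3-sh.

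The peak numbers of the other library show whether a peak removed after calling could have stood at such a place. Among the 119 chained NC-sh peaks without an overlap, 35 lay between METTL3-sh peaks of consecutive numbers (29.4%, 95% Wilson CI 22.0 to 38.1%), so no numbered METTL3-sh peak had been removed there. Over the whole NC-sh list this held for 452 of 2240 peaks without an overlap (20.2%, 18.6 to 21.9%). Chained peaks have close neighbours by the rule, and how far apart the flanking METTL3-sh peaks lay was not compared. The difference is thus not read as a trait of chains. Among 323 chained METTL3-sh peaks that had NC-sh peaks on both sides, 101 lay between consecutive NC-sh numbers (31.3%, 26.5 to 36.5%), close to the 1518 of 5033 over the whole METTL3-sh list (30.2%, 28.9 to 31.4%). At the remaining places at least 1 number was missing. The 3 cases with the most reads in each library were of the latter kind. In NC-sh they were the peaks at chr6:3019405-3019768 with 663 reads, chr18:65179995-65181542 with 552 and chr4:128753674-128754149 with 380. In METTL3-sh they were those at chr11:62293203-62294737 with 3014 reads, chr12:1601281-1601891 with 802 and chr4:13601209-13601500 with 672. Their fold enrichment ranged from 6.16 to 9.64, and these 6 peaks were chosen after their values were seen.

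Fold enrichment was compared in peaks that each overlapped only the other. Of 6863 such pairs, 306 had both peaks in a chain. In these 306 pairs NC-sh had a median fold enrichment of 12.3 against 13.03 for METTL3-sh. It was higher in METTL3-sh in 179 pairs and lower in 127 (41.5%), beside 41.1% lower over all 6863 pairs. As a log2 ratio, METTL3-sh to NC-sh, the median was 0.13 (95% order-statistic CI 0.05 to 0.23, SD 0.66 over pairs). The 6193 pairs with neither peak in a chain had a median log2 ratio of 0.13 too (0.11 to 0.15). At least a doubling in METTL3-sh was seen in 36 chained pairs (11.8%) beside 9.40% of all pairs, and at least a halving in 12 (3.92%) beside 4.78% of all pairs. The interval of the chained pairs contained the median of the pairs outside chains. Among pairs chained in NC-sh, whatever their state in METTL3-sh, the median log2 ratio was 0.12, and among those chained in METTL3-sh it was 0.13.

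**Figure D3:**
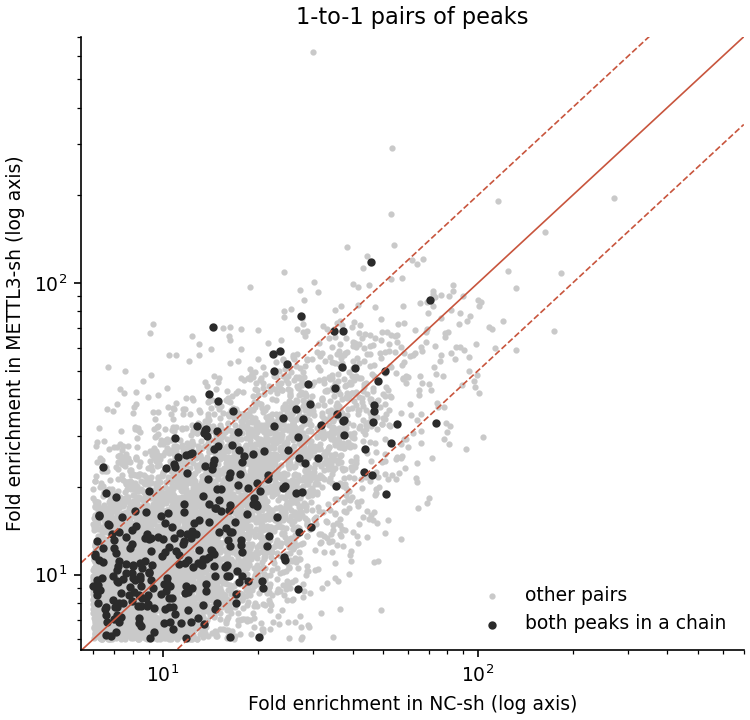
Fold enrichment in NC-sh (horizontal, log axis) against METTL3-sh (vertical, log axis) for peaks that each overlap only the other. Black points are the 306 pairs with both peaks in a chain and grey points the other pairs; the solid line marks equality and the dashed lines a doubling and a halving, and 36 black points lie on or above the upper dashed line and 12 on or below the lower one.

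Neighbours in a chain often differed in the direction of their ratio. With 1 library per condition, this cannot be told apart from variation in measurement. Of the 99 shared chains with 2 or more such pairs, all pairs were higher in METTL3-sh in 21, all were lower in 10, and 68 held both directions. Over all 6863 pairs, 4043 were higher and 2820 lower, so mixed directions are also common without any tie between neighbours. The SD of the log2 ratio was 0.63 within chains and 0.65 over all 296 pairs of these chains. Within a chain the log2 ratio ranged over a median of 0.99. Of its parts, each with 1 added, the local expectation had an SD of 0.57 within chains and the MeRIP pileup an SD of 0.35.

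The chains with the most peaks were then described 1 by 1, in both libraries. The longest by number of peaks was a METTL3-sh chain of 7 at chrX:102162010-102171161, over 9152 bp. Its summits held 42, 28, 34, 90, 34, 44 and 292 reads in order of position, with a fold enrichment of 8.14, 7.04, 8.41, 16.9, 8.41, 10.7 and 11.9. NC-sh had 1 peak there, over the last of the 7, with 242 reads and a fold enrichment of 20.1. Apart from that last place, each peak of this chain rested on at most 90 reads. Between the NC-sh peaks flanking the span, 2 further NC-sh numbers were missing, so at most 2 removed NC-sh peaks could have matched the 6 others.

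The widest chain was at chr14:105404633-105419211 in METTL3-sh, where 5 peaks filled 86.0% of 14579 bp. It was also the one with by far the most reads among the named chains, at 14744, 2922, 7561, 6978 and 8425 in METTL3-sh. In NC-sh, the corresponding peaks held 13996, 3190, 7249, 6907 and 8215 reads. In METTL3-sh the fold enrichment was 24.2, 6.86, 11.1, 11.6 and 8.80, against 28.3, 6.61, 8.76, 9.92 and 8.70 for NC-sh. At each of the 5 places the libraries had similar values of fold enrichment, with the highest at the first place in both. The last peak was 6923 bp long in METTL3-sh and 4825 bp in NC-sh, where a gap of 2346 bp before it ended the chain at 4 peaks.

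At chr5:10650252-10657513 NC-sh had a chain of 5 peaks, whose summits held 401, 807, 675, 455 and 145 reads. Fold enrichment ran 7.35, 16.6, 9.40, 16.8 and 6.31. METTL3-sh had 3 peaks of 1097, 1635 and 3205 bp there, holding 1097, 921 and 887 reads at a fold enrichment of 7.14, 14.0 and 13.4. The summit of the first METTL3-sh peak lay before the start of the NC-sh chain, so its values were measured outside that span. Each of the 5 NC-sh peaks was overlapped, and the last METTL3-sh peak alone spanned 3 of them.

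At chr10:129902292-129907684 the 5 NC-sh peaks held 2435, 316, 272, 807 and 651 reads. METTL3-sh had 4 of these places, with 1979, 229, 606 and 566 reads, and no peak at the third, which had the lowest fold enrichment in NC-sh, 6.002. At that place 1 METTL3-sh number was missing. The first place had a fold enrichment of 24.9 in NC-sh beside 26.7 for METTL3-sh, and the last 24.2 beside 11.5. Local expectation at the last place was 7.84 in NC-sh against 17.0 for METTL3-sh, and its part in the lower ratio was not tested. Reads there differed less, at 651 and 566.

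Chromosome 6 had a pair of NC-sh chains of 5 peaks. At chr6:90571834-90578537 the NC-sh summits held 148, 437, 975, 256 and 340 reads, and METTL3-sh had peaks at the first 4 places with 122, 809, 1334 and 304. The fifth place, with a fold enrichment of 16.0 in NC-sh, had no METTL3-sh peak, and 2 METTL3-sh numbers were missing between the peaks that flanked the span. At chr6:169819748-169825296 reads were fewer, at 69, 31, 91, 58 and 64 in NC-sh and 73, 54, 212 and 94 in METTL3-sh. The last peak was again lacking in METTL3-sh, with 2 numbers missing between the flanking peaks. Of these, 1 lay between the first and second METTL3-sh peaks, so at most 1 removed peak could have stood at the last place. In both chains METTL3-sh thus had peaks at the first 4 places.

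The METTL3-sh chain at chr19:21623800-21632127 had 5 peaks with 252, 98, 384, 555 and 680 reads. NC-sh had 4 of the places, with 131, 324, 529 and 496 reads, and lacked the second, the weakest in METTL3-sh. No NC-sh number was missing between the peaks that flanked the span. The strongest place by fold enrichment differed, being the first in METTL3-sh with 30.9 and the fourth place in NC-sh with 43.5.

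At chr2:233201596-233208187 METTL3-sh had 5 peaks with 234, 70, 165, 127 and 32 reads, and NC-sh had 3 of the places with 105, 148 and 145 reads. NC-sh had no chain there, with gaps of 3104 bp between the first pair and 2066 bp from the third peak to the next, which lay beyond the span and had 29 reads. A similar case was chr4:13598747-13605164, where the 5 METTL3-sh peaks held 248, 1056, 672, 944 and 939 reads and the 4 NC-sh peaks 239, 1150, 1429 and 850, with a gap of 2442 bp in the middle. The absent NC-sh peak had 672 reads in METTL3-sh, and 2 NC-sh numbers were missing at that place.

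**Figure D4:**
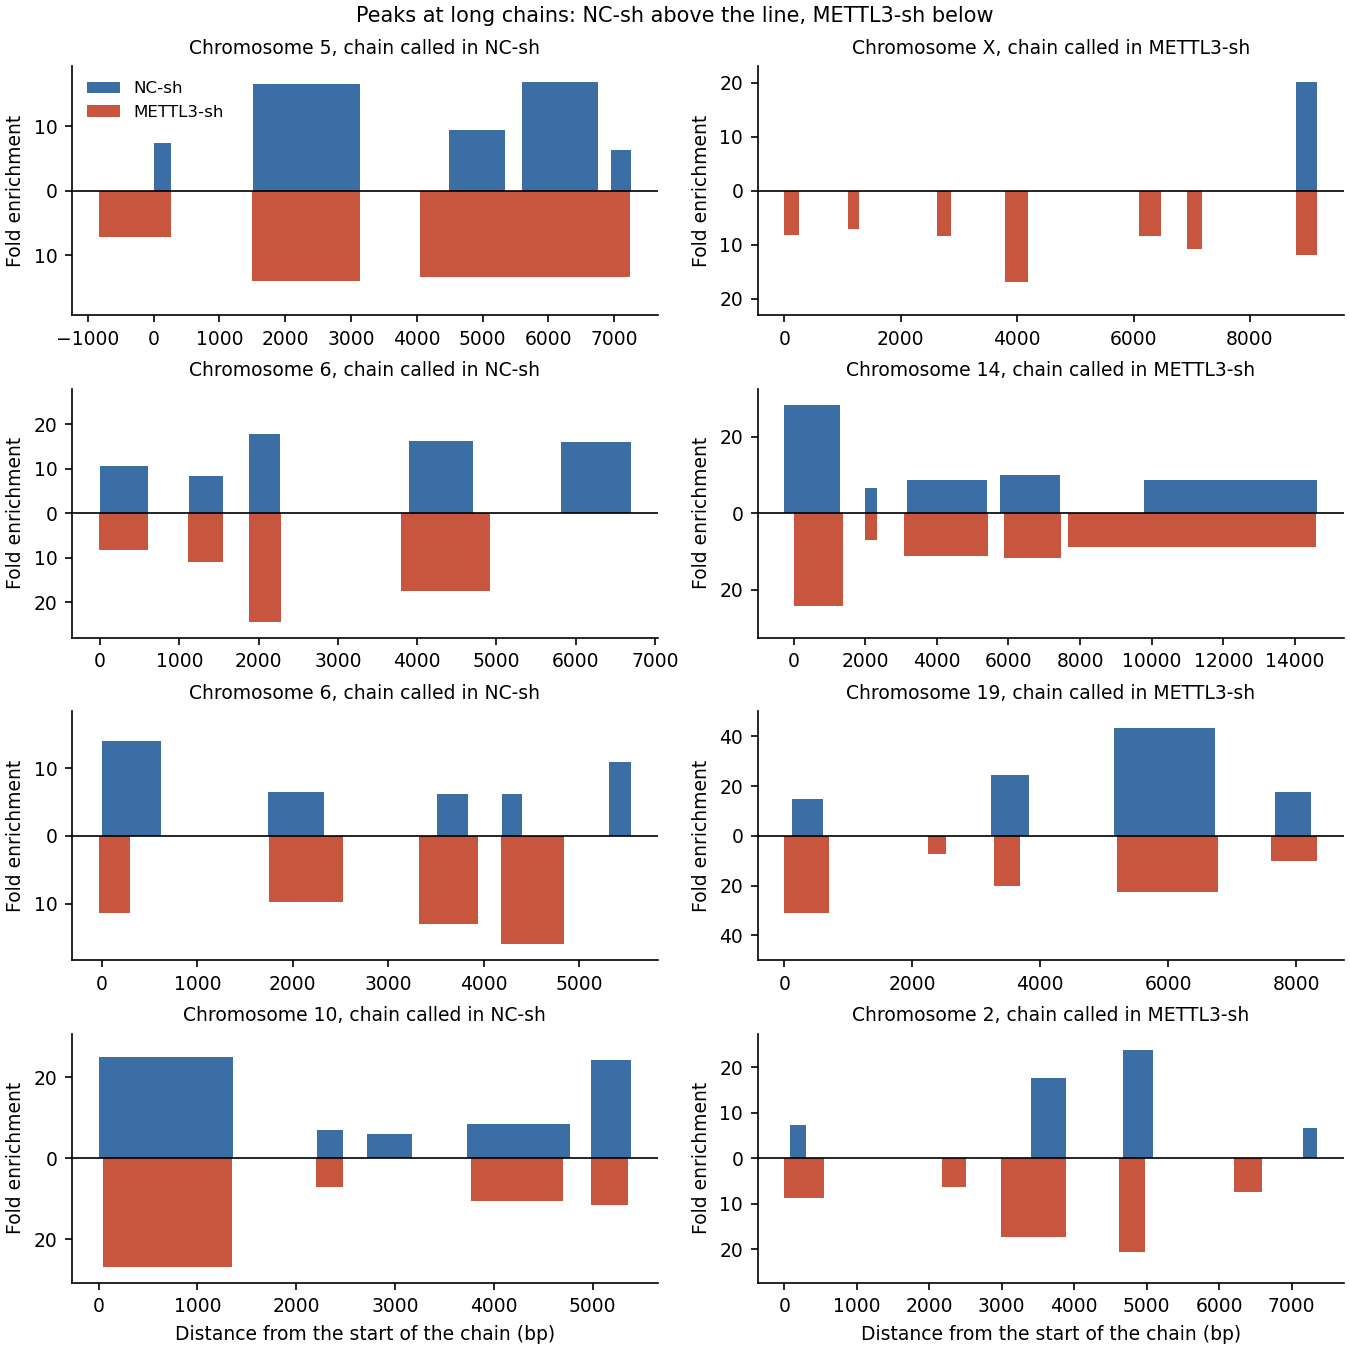
Peaks at the 4 NC-sh (left column) and 4 METTL3-sh (right column) chains with the most peaks and, among these, the longest spans. The horizontal axis is the distance in bp from the start of the chain, bars cover each peak's length, and bar height is fold enrichment, NC-sh upwards in blue and METTL3-sh downwards in red; on chromosome X, METTL3-sh has 7 peaks and NC-sh 1.

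The remaining NC-sh chains of 5 were at chr16:30790443-30795396, chr19:44470512-44475110, chr16:88498972-88503286, chr3:37364926-37368839 and chr4:262681-266304. METTL3-sh had 3, 4, 3, 4 and 5 peaks inside these spans, and a chain at each but the first. At the chromosome 4 locus both libraries had 5 peaks, with 110, 108, 96, 153 and 103 reads in NC-sh and 147, 111, 74, 190 and 96 in METTL3-sh. Chains of 4 with the longest spans in NC-sh were at chr14:105404375-105412082, chr7:152340131-152346245 and chr2:73675092-73680943, and each was shared. At the chromosome 7 locus all 4 peaks had a higher fold enrichment in METTL3-sh, at 12.03, 23.4, 9.61 and 27.5 against 11.0, 6.45, 9.13 and 15.0.

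The remaining METTL3-sh chains of 5 were at chr3:113374340-113379478, chr19:44469947-44474704, chr4:1160718-1165437, chr3:37363166-37367858, chr13:42873603-42877723, chr4:433941-437912 and chr4:262665-266290. NC-sh had 4, 5, 2, 4, 3, 4 and 5 peaks inside them and a chain at each but the third. At chr3:113374340-113379478 the strongest peak had 889 reads in METTL3-sh and 1027 in NC-sh, with a fold enrichment of 46.3 and 48.2.

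The chains with the largest surplus of peaks over the other library included 4 named above, at chr5:10650252-10657513, chr16:30790443-30795396, chrX:102162010-102171161 and chr4:1160718-1165437. The other 6 had at most 91 reads at any own summit. In NC-sh, chr14:21989663-21992929 had 3 peaks with 58, 31 and 43 reads and chr17:41286367-41289085 had 3 with 78, 87 and 83 reads, and METTL3-sh had none at either. Another, chr19:52568349-52570790, had 4 NC-sh peaks with 57, 67, 91 and 28 reads, and METTL3-sh had 1 peak with 119. In METTL3-sh, chr8:101217821-101220592 had 4 peaks with 60, 36, 31 and 43 reads and chr20:16347660-16349532 had 4 with 41, 43, 35 and 34, and NC-sh had none at either. At chr10:1256325-1261427 the 4 METTL3-sh peaks held 71, 43, 54 and 57 reads, and NC-sh had 1 peak with 61. Between the flanking peaks of the other library 3, 2, 2, 2, 1 and 3 numbers were missing at these 6 loci, in the order named. No more removed peaks than these could have stood at each. Whether a removed peak stood inside the span was not tested.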

How the data were processed

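Each MeRIP library has 1 peak list, deposited by the authors. The submitters' processing notes name TopHat2 2.0.13, MACS2 2.1.0.20151222 and hg19, without roles. The authors' pileup is a signal, MeRIP reads at the summit times a factor that is fixed within a library. The authors' fold enrichment is a ratio of that signal to a local expectation, with a pseudocount of 1 added to both. The −log10 p and −log10 q columns were deposited as the caller wrote them.

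Reads were pileup divided by its step (0.327 in NC-sh, 0.364 for METTL3-sh), on which 100% of low pileup values lay within 0.008. Solving the ratio for its denominator and subtracting 1 gave the local expectation. Total depth is unknown, so precision was described by reads at the summit. Chaining, overlap and pairing were tested on simulated data. Named chains are the 12 with the most peaks per library, ties going to the longer span, and 5 with the largest surplus of peaks over the other library. The latter cut left out chains of equal surplus. Members and lists were chosen with earlier results of these data known. The planned gene lists were not used, as no hg19 annotation was used here. Alternatives were other gaps, chain lengths, peak filters, merging, overlaps and measures. Python 3.11.15, numpy 2.4.6, pandas 2.3.3, scipy 1.17.1 and matplotlib 3.10.9 were used.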

Additional observations from a re-analysis of the deposited data

How the results depend on the processing

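The number and the sharing of chains depended on how a chain was defined. Looser or stricter limits admit more or fewer peaks, which changes the number of chains by construction. Why the sharing changed was not tested. With a largest gap of 1000 bp NC-sh had 130 chains and METTL3-sh had 166, with 46.9% and 36.75% shared. With 5000 bp there were 317 and 464, with 62.5% and 42.5% shared. With at least 4 peaks, 41 and 68 chains remained, with 43.9% and 26.5% shared. Keeping peaks of 12-fold enrichment or more left 18 and 29 chains, with 44.4% and 27.6% shared. Keeping peaks whose −log10 q reached the pooled median (36.6) left 47 and 80 chains, with 68.1% and 40% shared. The METTL3-sh shares stayed within the interval of the main setting with both gaps and with this filter. With equal numbers of peaks, 49.0% of the NC-sh chains, within their interval, and 50% of the METTL3-sh chains were shared. METTL3-sh then had 0.98 times as many chains as NC-sh, beside 1.70 times with the −log10 q filter. These were the lowest and highest ratio among the alternatives run. Counting any peak in the span as sharing gave 99.0% and 94.1%. Merging peaks closer than 200 bp and requiring 50% of both spans kept the numbers of chains within 1.5 times and the shares shared within their intervals.

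The median log2 ratio in chained pairs was above 0 under each alternative run on it and lay within its interval, except with −log10 q in place of fold enrichment, which gave 0.36. The cause was not tested. The assignment of genes was not run. No replicate could be left out. No paired analysis was possible because only 1 MeRIP library stood for either condition. The weakest chained summits rested on few reads, as few as 27 in NC-sh and 24 in METTL3-sh.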
